A study of Mus musculus with 10 samples.

Results

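The SR proteins, the heterogeneous nuclear ribonucleoproteins (hnRNPs), the cold-inducible proteins CIRBP and RBM3, and SFPQ are RNA-binding proteins that decide how transcripts are spliced, exported and degraded. Their genes were followed here in calf muscle (gastrocnemius and plantaris, pooled per mouse) of male C57BL/6 mice aged 12 weeks. The members were taken by gene name from the deposited count table: the symbols Srsf followed by a number, every symbol starting with Hnrnp, and *Cirbp*, *Rbm3* and *Sfpq*. This gave 34 of 24421 rows, of which 11 are SR genes and 20 are hnRNP genes. Food was withheld for about 16 h. Ethanol was then given to 5 mice at 3 g/kg by intraperitoneal injection (mice 51, 57, 59, 60 and 62), and 5 received an equal volume of 0.9% saline (mice 32, 34, 36, 38 and 39). Mice of both groups stayed fasted, and muscle was dissected under isoflurane 1 h after the injection. The groups hold separate animals, and the question of the comparison was which of these transcripts differed 1 h after a binge-like dose.

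SR proteins carry an arginine- and serine-rich tail that kinases phosphorylate, and they mostly bind exonic enhancers and recruit the spliceosome. hnRNPs coat nascent RNA and often oppose SR proteins at splice sites, and several also control the stability or translation of messages. Many of these genes limit their own output through poison exons, which send the transcript to nonsense-mediated decay (NMD). CIRBP and RBM3 are made in larger amounts when cells are mildly cooled, and CIRBP binds the messages of clock genes such as *Clock* in mouse cells.

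A mild cold response element, TCCCCGCC, has been described upstream of *Cirbp*. It was searched on both strands in RefSeq windows (GRCm38.p6) from 250 bases before to 50 bases after each annotated start. Windows were given for 31 of the 34 members, and *Rbm3*, *Hnrnpll* and *Hnrnpul2* had none in the table. The element was found in 4 of these 31 genes (12.9%), against 6.19% of all 27025 genes with a window. These 4 windows are shown because *Cirbp* is the cold-induced gene of the set that has a window, and its levels can be set beside those of the other genes that share the letters. Capitals mark the element, in its forward or reverse form, and each sequence runs 5′ to 3′ on the gene's strand.
Cirbp, chr10:80167589-80167888, + strand: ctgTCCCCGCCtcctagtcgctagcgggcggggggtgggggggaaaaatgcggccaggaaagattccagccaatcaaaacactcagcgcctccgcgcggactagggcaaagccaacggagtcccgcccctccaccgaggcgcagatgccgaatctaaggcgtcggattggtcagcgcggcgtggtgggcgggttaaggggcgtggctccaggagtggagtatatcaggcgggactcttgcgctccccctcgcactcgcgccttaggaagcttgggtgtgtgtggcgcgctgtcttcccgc
Hnrnpa0, chr13:58128507-58128806, - strand: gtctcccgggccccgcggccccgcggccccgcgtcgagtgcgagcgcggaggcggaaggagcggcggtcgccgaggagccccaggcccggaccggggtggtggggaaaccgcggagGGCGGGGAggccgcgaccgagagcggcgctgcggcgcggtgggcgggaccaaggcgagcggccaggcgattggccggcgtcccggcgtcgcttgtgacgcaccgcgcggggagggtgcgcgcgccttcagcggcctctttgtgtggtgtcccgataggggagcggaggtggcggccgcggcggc
Hnrnpf, chr6:117917044-117917343, + strand: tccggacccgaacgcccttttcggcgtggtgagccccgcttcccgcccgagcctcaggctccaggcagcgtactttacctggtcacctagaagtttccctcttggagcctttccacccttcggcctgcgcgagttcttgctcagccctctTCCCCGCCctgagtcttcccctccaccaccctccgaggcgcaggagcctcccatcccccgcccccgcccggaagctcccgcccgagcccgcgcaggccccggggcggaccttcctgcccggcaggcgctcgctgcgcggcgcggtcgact
Srsf7, chr17:80207256-80207555, - strand: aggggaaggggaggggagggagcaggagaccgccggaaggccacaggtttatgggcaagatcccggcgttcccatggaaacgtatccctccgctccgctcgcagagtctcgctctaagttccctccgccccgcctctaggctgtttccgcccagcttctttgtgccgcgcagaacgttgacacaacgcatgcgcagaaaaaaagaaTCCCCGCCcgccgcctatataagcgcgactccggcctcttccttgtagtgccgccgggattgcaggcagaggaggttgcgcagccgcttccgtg

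In *Cirbp* the element began at base 4 of the window, in *Hnrnpa0* at base 117 (reverse form), in *Hnrnpf* at base 151 and in *Srsf7* at base 207. In *Hnrnpa0*, *Hnrnpf* and *Srsf7* it overlapped a GC box, GGGCGG or its complement, which 25 of the 31 members held (80.6%), against 38.2% of all genes with a window. The E-box CACGTG, which clock factors bind, was in 5 of 31 members (16.1%, against 8.09% of all genes), and the heat shock core GAANNTTC in 4 (12.9%, against 9.04%). A match describes the letters of the window and is not a measured site. The 27025 genes behind each share were not limited to the 13180 genes tested in this muscle. They were also not matched to the members for GC content of the window, so the shares are not read as enrichment.

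Library totals ran from 20318000 to 31252400 counts in ethanol and from 32038900 to 42654800 in saline, so every ethanol library was shallower. Of the 34 members, 33 passed the filter on low counts, and levels are given as CPM, each count relative to its library total, scaled by the trimmed mean of M values (TMM). *Srsf12* did not pass, with 1 count in ethanol 60, 1 in saline 34 and 0 in the other 8 libraries. The 33 tested members had a median level of 71.6 CPM, against 13.7 CPM over all 13180 tested genes. The tissue label was matched by 8 of 8 muscle fibre markers, whose summed level was 110139 to 132104 CPM in ethanol and 107725 to 131020 in saline. Adipocyte markers summed to 525 to 1169 CPM in ethanol and 403 to 574 in saline, and the 1169 CPM of ethanol 60 stood well above the next ethanol library at 656. Fold changes were positive for 5 of 8 muscle fibre, 7 of 7 adipocyte, 5 of 5 endothelial, 5 of 5 macrophage and 5 of 6 fibroblast markers. They were positive for 3 of 4 Schwann cell, 2 of 3 satellite cell and 0 of 3 tested neutrophil markers. Over all tested genes 49.8% of fold changes were negative. By edgeR 2 neutrophil, 2 adipocyte and 2 fibroblast markers had an unadjusted p under 0.05. So did 1 marker each of the muscle fibre, endothelial, macrophage and satellite cell lists, and 12.1% of all tested genes. Endothelial markers summed to 320.5 to 441 CPM in ethanol and 289 to 372 in saline, macrophage markers to 35.7 to 53.8 and 35.2 to 49.0, fibroblast markers to 841 to 1161 and 829 to 1064, Schwann cell markers to 325 to 727 and 349 to 589, satellite cell markers to 5.59 to 7.44 and 3.86 to 6.09, and neutrophil markers to 1.16 to 4.09 and 2.62 to 11.9, each with ethanol first. The erythroid gene *Alas2* had 11.2 to 19.5 CPM in ethanol and 7.97 to 50.3 in saline, while the 3 globin genes of that list were at 0 counts in every library. The part of these cell types in the values of the RNA-binding genes was not tested, and in bulk tissue fewer cells of a type and less RNA per cell cannot be told apart.

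No member differed between ethanol and saline at a false discovery rate (FDR) of 0.05, and the intervals were narrow. By edgeR's quasi-likelihood test 0 of 33 members passed, as did 0% of all tested genes, and DESeq2 called 0 of 33 against 0.41% of all genes. At an unadjusted p under 0.05 edgeR placed 2 members lower in ethanol (6.06%, against 5.91% of all genes), *Hnrnpll* and *Srsf11*, and 0 higher (against 6.22% of all genes). The first share is near that of all genes and the second below it, and in either direction the shares were 6.06% of members and 12.1% of all genes. In DESeq2 the same 2 members had an unadjusted p under 0.05 (12.7% of all genes). With 1 surrogate variable in the edgeR fit 0 members passed FDR 0.05 (0.0531% of all genes), and 5 had an unadjusted p under 0.05 (15.2%, against 10.1% of all genes). They were *Srsf5* (0.30), *Hnrnpm* (0.25), *Cirbp* (0.24), *Hnrnpa0* (0.21) and *Srsf3* (-0.18, log2 fold changes), and *Hnrnpll* and *Srsf11* were not among them. The median log2 fold change was -0.01 over the 33 members and 0.00096 over all tested genes, and its median size was 0.05 in members and 0.11 over all genes. Negative fold changes were found in 21 of 33 members (63.6%) and in 49.8% of all genes. For 32 of 33 members the whole 95% interval lay within 1.5-fold in either direction. The exception was *Hnrnpa1*, whose interval reached down to 0.63-fold. This count was not made over all tested genes, so it is not read as particular to the members. A log2 fold change beyond 0.5 in size was seen in 0 members and in 4.61% of all genes.

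**Figure D1:**
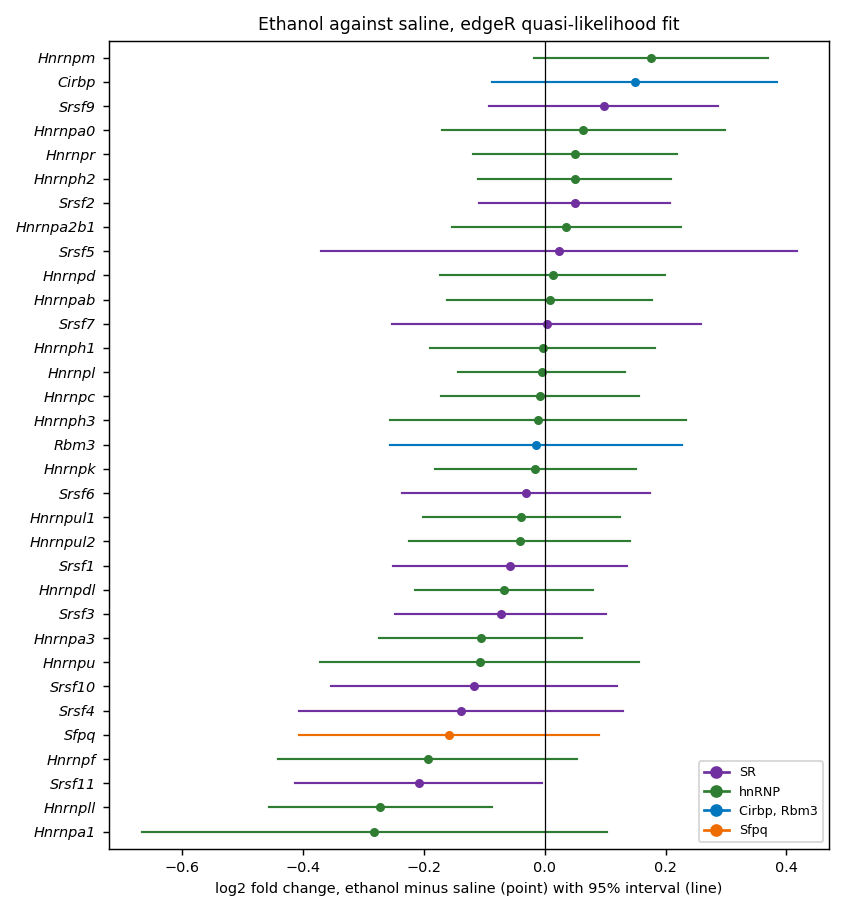
Log2 fold changes (ethanol minus saline, x axis) of the 33 tested members, sorted by value, as points with 95% intervals from the edgeR fit on 5 mice per group. The intervals of Hnrnpll and Srsf11 lie below 0 and the other 31 include 0.

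Among SR genes, levels per kilobase of annotated exon were highest for *Srsf5*, at 35.6 ± 8.94 CPM per kb in ethanol and 35.1 ± 6.58 in saline, and for *Srsf2*, which encodes the nuclear speckle protein SC35, at 24.9 ± 1.77 and 24.1 ± 1.61 (SD, n = 5 each). *Srsf6* (12.0 CPM per kb in ethanol, 12.2 in saline), *Srsf1* (8.82 and 9.18) and *Srsf7* (8.17 and 8.16) followed. *Srsf9*, *Srsf3*, *Srsf11*, *Srsf10* and *Srsf4* lay between 3.05 and 6.62 CPM per kb in ethanol and between 3.36 and 6.42 in saline. Neighbours in this order below *Srsf2* often lay within each other's SD, such as *Srsf1* and *Srsf7*, or *Srsf3* and *Srsf11*. The order also depends on the length used, which counts every annotated exon of a gene. By mean CPM over all libraries *Srsf11* (50.6) and *Srsf3* (47.5) stood above *Srsf7* (29.0). The SR genes together held 496 ± 52.2 CPM in ethanol and 507 ± 39.6 in saline (SD, n = 5 each).

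*Srsf11*, encoding the SR-related factor p54, had 52.8, 46.6, 40.1, 41.8 and 53.3 CPM in ethanol 51, 57, 59, 60 and 62, against 53.9, 56.0, 61.3, 47.9 and 52.2 CPM in saline 32, 34, 36, 38 and 39. Ethanol 57, 59 and 60 lay below every saline library and the other 2 ethanol libraries overlapped them. Its log2 fold change was -0.21 ± 0.10 (SE, edgeR FDR = 0.407). The unadjusted p of 0.0458 passed 0.05 only narrowly, and it did not do so without ethanol 57, 59 or 60 or without saline 32, 34, 36 or 39 (0.0990 without saline 36), nor with total count scaling (0.0863) or over genes at 5 CPM or more (0.0530). *Srsf5* had the widest spread of the SR genes, with 158, 122, 89.4, 169 and 172 CPM in ethanol 51, 57, 59, 60 and 62, against 138, 123, 183, 139.4 and 116 CPM in saline 32, 34, 36, 38 and 39. The lowest value was in ethanol 59 and the highest in saline 36, 2.05-fold apart, and the groups overlapped. The difference was 0.02 ± 0.18 on the log2 scale (SE, edgeR FDR = 0.970). Its interval, from -0.37 to 0.42, was the widest of the SR genes.

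*Srsf3* and *Srsf7*, encoding the 2 small SR proteins that also couple splicing to mRNA export, followed another order. *Srsf3* had 41.0, 52.5, 48.7, 43.5 and 45.7 CPM in ethanol 51, 57, 59, 60 and 62, against 50.5, 54.2, 45.7, 46.8 and 46.3 CPM in saline 32, 34, 36, 38 and 39. *Srsf7* had 26.1, 36.4, 25.3, 26.2 and 31.0 CPM in the same order of ethanol libraries, against 27.2, 36.2, 24.9, 27.0 and 29.4 CPM in saline. Ethanol 57 and saline 34 held the highest values of both genes, 1 library of each group. The log2 fold changes were -0.07 ± 0.08 for *Srsf3* and 0.0030 ± 0.12 for *Srsf7* (SE, edgeR FDR = 0.749 and 0.994).

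The remaining SR genes were *Srsf1*, the prototype splicing activator of the family, *Srsf2*, *Srsf4*, *Srsf6*, *Srsf9* and *Srsf10*, whose protein represses splicing once dephosphorylated. Their log2 fold changes lay between -0.14 (*Srsf4*) and 0.10 (*Srsf9*), and every interval included 0. *Srsf2* had the narrowest interval, from -0.11 to 0.21.

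Gene counts sum productive and NMD-bound transcripts, so a shift between them at a constant total cannot be seen here. In the GENCODE M21 annotation 9 of the 10 tested SR genes had at least 1 transcript classed as NMD , as did 10 of 20 hnRNP genes and 28.1% of protein-coding tested genes. A retained-intron transcript was annotated for 8 of 10 SR genes, 14 of 20 hnRNP genes and 58.6% of protein-coding tested genes. The members were also lower in GC, with a median transcript GC content of 43.6%, against 49.9% over all tested genes. Within each library the deviation of every gene's log2 CPM from its own mean over the 10 libraries was regressed on GC content. This relative slope ran with the groups, at 0.022 to 0.062 per 10% GC in ethanol libraries and at -0.099 to 0.0067 in saline libraries. It compares libraries with each other and does not give how expression depends on GC within 1 library. After removal of each library's GC trend, *Hnrnpll* stood at -0.20 (FDR = 0.496) and *Srsf11* at -0.18 (FDR = 0.553, edgeR), and *Srsf11* no longer had an unadjusted p under 0.05.

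**Figure D2:**
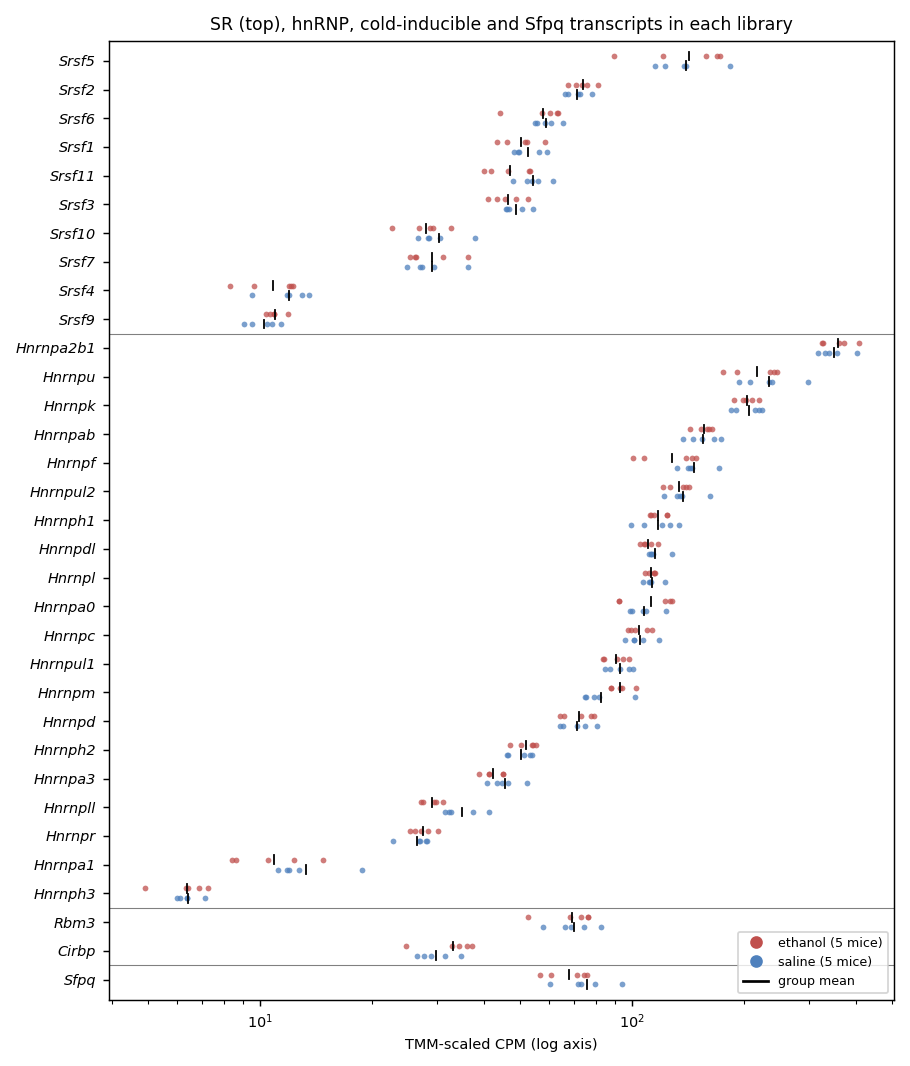
TMM-scaled CPM (log axis) of the 33 tested members in each library, with ethanol mice above saline mice for every gene, black bars at the group means and horizontal lines between SR genes, hnRNP genes, the cold-inducible pair and Sfpq. The groups lie apart only for Hnrnpll, at 27.1 to 31.1 CPM in ethanol and 31.4 to 41.2 in saline.

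The hnRNP genes were the most abundant members, at 2179 ± 125 CPM in ethanol and 2213 ± 200.1 in saline for the 20 genes together (SD, n = 5 each). Per kilobase, *Hnrnpab* (56.2 ± 2.91 CPM per kb in ethanol, 55.9 ± 5.34 in saline) and *Hnrnpa2b1* (54.4 ± 5.26 and 53.1 ± 4.98) led the order and lay within each other's SD (SD, n = 5 each). *Hnrnpf* (42.1 in ethanol, 48.2 in saline), *Hnrnpa0* (42.0 and 40.2) and *Hnrnpk* (31.6 and 31.9) came next. *Hnrnph3*, *Hnrnpll* and *Hnrnpr* were the lowest, at 1.24 to 2.48 CPM per kb in ethanol and 1.19 to 3.00 in saline. This order depends on the length used, which counts every annotated exon of a gene (22199 bases for *Hnrnpr* and 11677 for *Hnrnpll*). By mean CPM over all libraries *Hnrnpll* (32.0) and *Hnrnpr* (27.0) stood above *Hnrnpa1* (12.1), and *Hnrnph3* (6.37) was the lowest.

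*Hnrnpll*, the paralogue of *Hnrnpl* known for controlling CD45 splicing in lymphocytes, was the only member whose groups did not overlap. It had 29.8, 27.1, 27.5, 29.4 and 31.06 CPM in ethanol 51, 57, 59, 60 and 62, against 32.7, 32.3, 41.2, 37.3 and 31.4 CPM in saline 32, 34, 36, 38 and 39. The gap between the nearest libraries, ethanol 62 and saline 39, was small, and saline 36 was the highest. The log2 fold change was -0.27 ± 0.09 (SE, edgeR FDR = 0.307), with 5 of 5 ethanol mice below every saline mouse. Such a separation toward lower values was seen in 1 of 33 members (3.03%) and in 0.819% of all tested genes, and toward higher values in 0 members and 1.36% of all genes. *Hnrnpl* itself, which binds CA repeats, was the steadiest member, at 113 ± 3.14 CPM in ethanol and 113 ± 5.77 in saline (SD, n = 5 each), which on the log2 scale is -0.0047 with an interval from -0.14 to 0.13.

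*Hnrnpa2b1*, a core hnRNP that also sorts RNAs into granules and exosomes, had 326, 359.9, 373, 325 and 407 CPM in ethanol 51, 57, 59, 60 and 62, against 317, 331, 402, 357 and 339.7 CPM in saline 32, 34, 36, 38 and 39. *Hnrnpu*, the scaffold attachment factor of chromatin, had 234.5, 176, 191.5, 245 and 241 CPM in ethanol, against 207, 194.5, 297, 239 and 234 CPM in saline, in the same order of mice. *Hnrnpk*, which binds C-rich stretches, had 199, 202, 189, 211 and 219.9 CPM in ethanol, against 185, 190.4, 223, 219 and 214 CPM in saline. The groups of all these genes overlapped widely. *Hnrnpab* had 159, 154, 144, 161 and 164 CPM in ethanol, against 137, 146, 174, 154 and 166 CPM in saline. The log2 fold changes were 0.04 ± 0.09 for *Hnrnpa2b1*, -0.11 ± 0.12 for *Hnrnpu*, -0.02 ± 0.08 for *Hnrnpk* and 0.0080 ± 0.08 for *Hnrnpab* (SE, edgeR FDR 0.758 to 0.976). The value of *Hnrnpu* turned on single mice, at -0.01 without saline 36, -0.04 without ethanol 57, -0.07 without ethanol 59 and -0.16 without saline 34.

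*Hnrnpm*, a repressor of splicing at GU-rich sites, had the largest positive value, with 88.0, 87.6, 94.2, 93.0 and 102.9 CPM in ethanol, against 74.96, 81.5, 101.7, 75.05 and 79.0 CPM in saline, in the order of mice used above. Every ethanol library lay above every saline library except saline 36, and the log2 fold change was 0.18 ± 0.09 (SE, edgeR FDR = 0.453), or 0.26 without saline 36 (unadjusted p = 0.00417, FDR = 0.383). *Hnrnpf*, which binds runs of G, had 149, 108, 100.5, 139.9 and 145 CPM in ethanol, against 144, 132, 172, 142 and 145 CPM in saline. Only ethanol 57 and 59 lay below the saline range, and the log2 fold change was -0.19 ± 0.12 (SE, edgeR FDR = 0.504), or -0.12 without ethanol 59.

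*Hnrnpa1*, a classical antagonist of SRSF1, had the most negative value and a wide error, at -0.28 ± 0.18 (SE, edgeR FDR = 0.532, -0.13 without saline 36). It had 14.8, 8.41, 8.64, 10.5 and 12.4 CPM in ethanol, against 12.7, 11.8, 18.9, 12.0 and 11.1 CPM in saline. Its level is uncertain, because 15 annotated pseudogene transcripts, processed or unprocessed, matched it at 90% identity or more over at least 300 bases. How reads shared with such copies were counted is not given. The same holds for *Hnrnpa3* with 37 such transcripts and *Hnrnpf* with 7, and 14 members had at least 1. Exons of 12 members overlap a gene on the opposite strand, among them *Hnrnpu* with *Cox20* over 804 bases, *Hnrnpab* with *Phykpl* over 809 bases and *Srsf4* with *Gm12992* over 1532 bases, and without a stated strand setting the reads of such partners cannot be told apart. Some members overlap a gene on the same strand, among them *Hnrnpm* with *March2* over 1169 bases and *Sfpq* with *Gm12940* over 216 bases. A strand setting would not separate those reads.

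The other 12 hnRNP genes had intervals that included 0. They were *Hnrnpa0* and *Hnrnpd* (AUF1), which bind AU-rich elements of unstable messages, *Hnrnpdl*, *Hnrnpc*, which binds U tracts, the G-run binders *Hnrnph1*, *Hnrnph2* and *Hnrnph3*, *Hnrnpr*, *Hnrnpul1*, *Hnrnpul2*, *Hnrnpa3* and *Hnrnpl*. Their log2 fold changes lay between -0.11 (*Hnrnpa3*) and 0.06 (*Hnrnpa0*).

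The cold-inducible pair did not differ between the groups beyond its error. *Cirbp* had 37.2, 24.7, 34.3, 32.8 and 36.1 CPM in ethanol 51, 57, 59, 60 and 62, against 28.8, 31.5, 34.6, 26.5 and 27.6 CPM in saline 32, 34, 36, 38 and 39. Ethanol 57 was the lowest of all 10 libraries, while ethanol 51 and 62 lay above the saline range. The log2 fold change was 0.15 ± 0.11 (SE, edgeR FDR = 0.596), with an interval from -0.09 to 0.38. *Rbm3* had 76.4, 52.7, 72.8, 68.1 and 76.02 CPM in ethanol, against 68.7, 82.7, 74.1, 57.6 and 66.2 CPM in saline, in the same order of mice. Ethanol 57 was again the lowest, the highest was saline 34, and the log2 fold change was -0.01 ± 0.11 (SE, edgeR FDR = 0.970) with an interval from -0.26 to 0.23. Without ethanol 57 the values were 0.24 for *Cirbp* (edgeR unadjusted p = 0.0200, FDR = 0.567) and 0.07 for *Rbm3* (FDR = 0.882).

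*Sfpq*, encoding the paraspeckle and splicing factor that pairs with NONO, had 75.9, 56.6, 60.6, 71.1 and 74.5 CPM in ethanol, against 71.5, 60.2, 93.8, 79.6 and 72.9 CPM in saline. Only ethanol 57 lay below the saline range, and saline 36 was far above the rest. The log2 fold change was -0.16 ± 0.12 (SE, edgeR FDR = 0.593), or -0.08 without saline 36 (FDR = 0.840) and -0.10 without ethanol 57 (FDR = 0.840).

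For 30 of the 33 members the difference between the group means was smaller than the SD of the saline mice. This was not counted over all tested genes, so it is not read as particular to the members. Members tended to be high or low in the same mice. Saline 36 held the highest value of 20 of the 33 members (60.6%), against 17.9% of all tested genes, and ethanol 57 and ethanol 59 each held the lowest value of 9 (27.3% each, against 12.4% and 14.3% of all genes). Summed over all members the level was 2878, 2702, 2644, 2904 and 3098 CPM in ethanol 51, 57, 59, 60 and 62, against 2705, 2745, 3315, 2868 and 2843 CPM in saline 32, 34, 36, 38 and 39. The means were 2845 ± 180 and 2895 ± 244 CPM in ethanol and saline (SD, n = 5 each). These sums share the scaling of each library, and saline 36 had the lowest TMM factor, 0.917, against 0.972 to 1.06 in ethanol and 0.993 to 1.02 in the other saline libraries. Its part in the position of saline 36 was not tested.

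**Figure D3:**
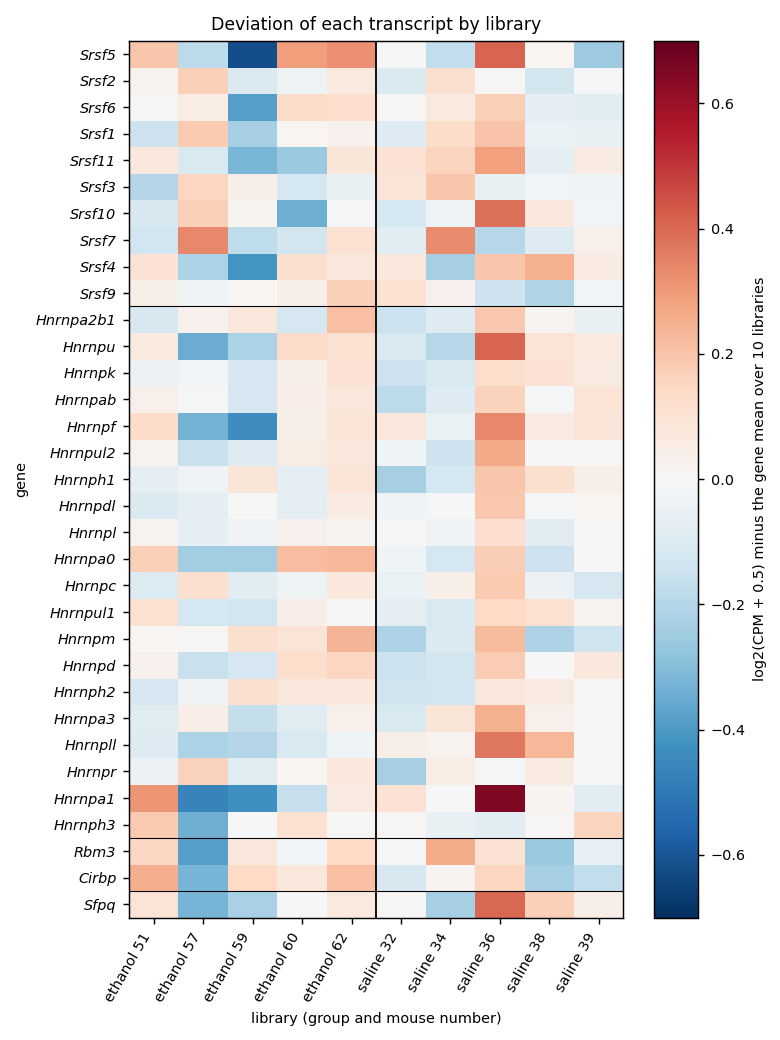
Deviation of each tested member from its own mean over the 10 libraries, as log2(CPM + 0.5), with genes down the page, ethanol libraries left of the black line and saline libraries right of it. Saline 36 is red for most genes, and ethanol 57 and 59 are blue for many hnRNP genes. Srsf3 runs against this pattern in each of these libraries. Srsf7 does so in saline 36 and ethanol 57 but is blue in ethanol 59 (-0.18). Other members, such as Srsf1 (0.19) and Srsf10 (0.17), are also red in ethanol 57.

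Deviations of log2(CPM + 0.5) from the group mean were compared between members over the 10 libraries, as a description. The points of each pair share libraries, depth and scaling. The median correlation was 0.54 over the 190 pairs of hnRNP genes, 0.26 over the 45 pairs of SR genes and 0.36 over all 528 pairs of members, and it was -0.0020 over all pairs of tested genes. Members had a higher median level than all tested genes (71.6 against 13.7 CPM) and a lower median GC content (43.6% against 49.9%). The part of either in these correlations was not tested. *Hnrnpu* and *Hnrnpul2* gave 0.96, *Hnrnpf* and *Hnrnpa0* also 0.96, and *Sfpq* and *Hnrnpu* likewise. The 2 cold-inducible genes gave 0.91. *Srsf5* went with *Hnrnpf* (0.92) and *Hnrnpa0* (0.86), while *Srsf3* ran opposite to *Hnrnpul1* (-0.92), *Sfpq* (-0.86) and *Hnrnpu* (-0.86) and together with *Srsf7* (0.72). Of the 4 genes whose windows hold the mild cold response element, *Hnrnpf* and *Hnrnpa0* varied together, and *Cirbp* and *Srsf7* gave -0.47. Correlations of the other pairs among these 4 genes are not given. In ethanol 57 *Cirbp* (-0.33), *Hnrnpa0* (-0.24) and *Hnrnpf* (-0.33) lay below their means over the 10 libraries, and *Srsf7* (0.33) above. Saline 36 showed the reverse for each gene. In ethanol 59 *Cirbp* (0.14) lay above its mean, and *Hnrnpa0* (-0.24), *Hnrnpf* (-0.44) and *Srsf7* (-0.18) below.

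**Figure D4:**
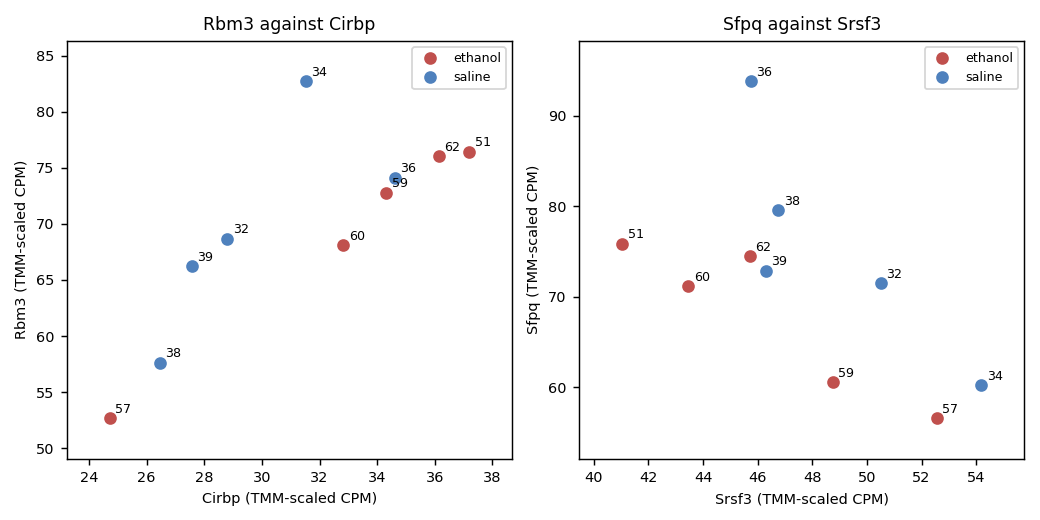
TMM-scaled CPM of Rbm3 against Cirbp (left) and of Sfpq against Srsf3 (right), 1 point per library, labelled with the mouse number and coloured by group. Rbm3 and Cirbp are both lowest in ethanol 57 and next lowest in saline 38, and Sfpq is lowest in ethanol 57 and saline 34, where Srsf3 is above 50 CPM.

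The wider splicing machinery was taken from lists of genes by function. Of 20 tested SR-related genes 16 had negative fold changes (median log2 fold change -0.10), and 2 were lower and 0 higher at an unadjusted p under 0.05. They were *Rsrp1*, an arginine- and serine-rich protein gene, and *Luc7l*, a U1 snRNP-associated factor. *Rsrp1* had 98.6, 120.8, 70.2, 86.3 and 104 CPM in ethanol 51, 57, 59, 60 and 62, against 147, 118, 173, 124 and 114 CPM in saline 32, 34, 36, 38 and 39, which is -0.49 ± 0.15 on the log2 scale (SE, edgeR FDR = 0.287). Only ethanol 57 lay within the saline range. *Luc7l* was at 23.5 ± 4.88 CPM in ethanol and 28.5 ± 3.08 in saline (SD, n = 5 each), which on the log2 scale is -0.28 ± 0.13 (SE, edgeR FDR = 0.410). Of 12 kinases and phosphatases that act on SR proteins 9 were negative (median -0.07), with the kinases *Prpf4b* (-0.19 ± 0.09) and *Dyrk1a* (-0.19 ± 0.09, log2 fold change ± SE, edgeR FDR = 0.410 for both) at an unadjusted p under 0.05. Of all tested genes 49.8% had negative fold changes. At an unadjusted p under 0.05 the shares of all tested genes were 5.91% lower, 6.22% higher and 12.1% in either direction. With lists this short the counts, here and in the lists below, are not read against these shares.

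Of 19 hnRNP relatives 10 were negative (median log2 fold change -0.03). The polypyrimidine tract proteins differed in sign. *Ptbp2* stood at 21.2 ± 1.13 CPM in ethanol and 24.2 ± 1.78 in saline, and *Ptbp1* at 18.6 ± 1.33 in ethanol and 16.1 ± 1.71 in saline (SD, n = 5 each). The log2 fold changes were -0.20 ± 0.07 for *Ptbp2* and 0.20 ± 0.09 for *Ptbp1* (SE, edgeR FDR = 0.351 and 0.393). The groups of *Ptbp2* did not overlap, as was so toward lower values in 0.819% of all tested genes. Of 22 core spliceosome genes 13 were negative (median -0.03) and 1 was lower at an unadjusted p under 0.05, the branch point factor gene *Sf3b1*. It had 146, 129, 124, 143 and 144 CPM in ethanol, against 162, 137, 248, 177 and 158 CPM in saline. Saline 36 stood far above the others, and the log2 fold change was -0.36 ± 0.13 (SE, edgeR FDR = 0.341) with it and -0.21 without it (FDR = 0.461).

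Of 14 NMD factors 9 were negative (median log2 fold change -0.02), and the kinase gene *Smg1*, which phosphorylates UPF1, had an unadjusted p under 0.05. It stood at 55.6 ± 5.85 CPM in ethanol and 79.1 ± 25.4 in saline (SD, n = 5 each), with 113 CPM in saline 36, and its log2 fold change was -0.51 ± 0.19 (SE, edgeR FDR = 0.359), or -0.35 without saline 36. Among 13 muscle splicing regulators (7 negative) and 9 paraspeckle genes (5 negative) 0 had an unadjusted p under 0.05 by edgeR. *Mbnl1*, whose protein is lost from its targets in myotonic dystrophy, stood at 376 ± 17.4 CPM in ethanol and 403 ± 12.5 in saline (SD, n = 5 each), which on the log2 scale is -0.10 ± 0.07 (SE, edgeR FDR = 0.552). The paraspeckle RNA *Neat1* stood at 396 ± 54.5 CPM in ethanol and 346 ± 74.2 in saline (0.20 ± 0.14, edgeR FDR = 0.580), and at 0.10 without saline 38, 0.11 without ethanol 62 and 0.32 without saline 34. Of 31 other Rbm genes 19 were negative (median -0.06), with 2 lower and 1 higher at an unadjusted p under 0.05. *Rbm7*, a component of the complex that feeds RNA to the nuclear exosome, was at 21.2 ± 2.73 CPM in ethanol and 27.1 ± 2.22 in saline (SD, n = 5 each), which on the log2 scale is -0.35 ± 0.09 (SE, edgeR FDR = 0.287). No gene of these lists passed FDR 0.05.

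**Figure D5:**
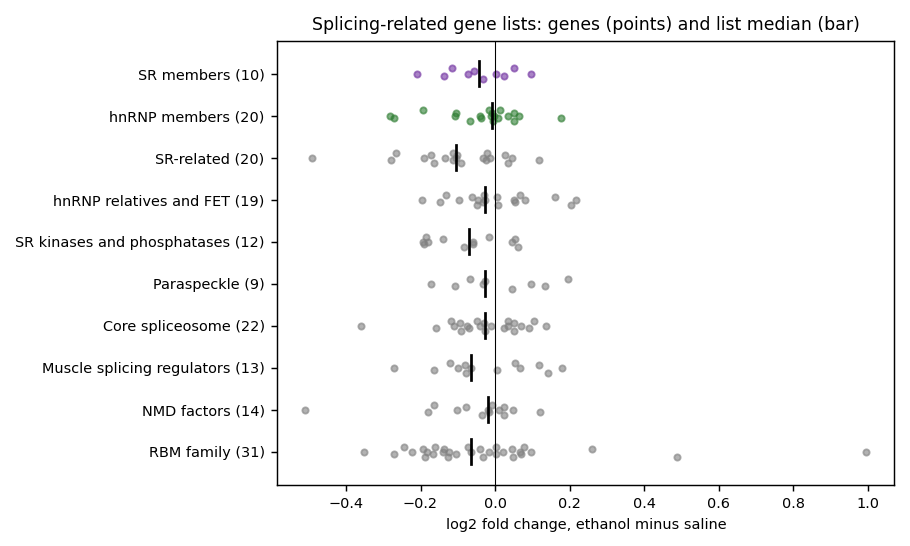
Log2 fold changes (ethanol minus saline, x axis) of the SR and hnRNP members and of 8 further splicing-related lists, with the number of tested genes in brackets, 1 point per gene and a bar at each list median. The medians lie between -0.10 and -0.0091, and the point near 1 is Rbm47, at 0.776 ± 0.38 CPM in ethanol and 0.384 ± 0.18 in saline (SD, n = 5 each).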

How the data were processed

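The authors deposited whole-number read counts per gene symbol for 10 poly(A) libraries sequenced from a single end, per the labels' protocols. TopHat2, DESeq2 1.6.3 and mm10 are named in the submitters' processing notes, with no role given. No source used here gives the read counter, annotation or strand setting (not given in the sources used here). Of the 24421 rows, 27 carry a calendar date in place of a symbol and stayed in the totals.

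Genes were filtered with edgeR's filterByExpr (minimum count 10, minimum total count 15), which left 13180, scaled by TMM and tested by quasi-likelihood F tests in edgeR 4.0.16 (robust dispersion, ethanol minus saline, Benjamini-Hochberg adjustment over all tested genes). Each SE was obtained from the estimate and its F statistic, as |log2 fold change| over the root of F. The procedure was tested on simulated counts. Alternatives used DESeq2 1.42.0, limma-voom (limma 3.58.1), sva 3.50.0, other scalings and filters, thinning to the smallest library, removal of the GC trend by lowess (span 0.3) and leaving out libraries. R 4.3.3 was used. Exon length, GC content and transcript classes come from GENCODE M21 on GRCm38, and pseudogene matches from BLAST 2.17.0. Promoter windows are from RefSeq, GRCm38.p6.

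Values in every library were given for members with an unadjusted p under 0.05, for *Cirbp*, *Rbm3*, *Sfpq* and the 4 most abundant members, and up to 3 genes of smallest p were eligible per related list. *Srsf3*, *Srsf5*, *Srsf7*, *Hnrnpm*, *Hnrnpf* and *Hnrnpa1* were added after their values were seen. The members and lists were chosen with earlier results of these data known. The edgeR p-values set the difference between the groups against the spread between the 5 mice per group, with the dispersion moderated across genes.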

Additional observations from a re-analysis of the deposited data

Results flagged for a closer look

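Each of the 33 tested members was checked in both groups for a mouse whose CPM stood apart from the other 4, measured as the gap to the nearest mouse over the range of the group (Dixon's critical value 0.71 for 5 samples). Of 66 groups 4 were picked out, and chance alone picks about 1 in 20. Saline 36 stood above the other saline mice for *Hnrnpa1* (18.9 CPM, against 11.1 to 12.7), *Hnrnpm* (101.7 CPM, against 74.96 to 81.5) and *Hnrnpdl* (128.5 CPM, against 111 to 114). Saline 32 stood below them for *Hnrnpr* (22.8 CPM, against 26.7 to 28.1). No ethanol mouse was picked out for any of these 33 genes.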

How the results depend on the processing

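No member passed FDR 0.05 in any of the 21 alternative fits. Over all genes edgeR called 0, DESeq2 54 and edgeR with 1 surrogate variable 7, and fits without 1 library called 0 to 1 (1 without ethanol 57 or saline 34). Members at an unadjusted p under 0.05 numbered 2, against 1 without robust dispersion, 1 with the GC trend removed, 5 with 1 surrogate variable and 1 to 3 with 1 library left out (1 without ethanol 59 or 60 or saline 32, 34 or 39, and 3 without ethanol 51). The count stayed at 2 with total count scaling, with genes at 5 CPM or more, and without saline 36 and ethanol 60, but *Srsf11* left it and *Hnrnpm* entered. In these fits the edgeR model gave *Srsf11* unadjusted values of 0.0863, 0.0530 and 0.207, and *Hnrnpm* 0.0124, 0.0436 and 0.00807. Of 693 alternative log2 fold changes of members, 95 had another sign than the reported value, in 21 genes, and in none of these was either value past FDR 0.05. With 1 surrogate variable these were *Hnrnpu* 0.10, *Hnrnph3* 0.041, *Hnrnph1* 0.044, *Hnrnpk* 0.048, *Hnrnpc* 0.016, *Hnrnpa1* 0.0053, *Srsf7* -0.14, *Hnrnpul2* 0.0803, *Srsf6* 0.048, *Sfpq* 0.052, *Srsf4* 0.049, *Hnrnpul1* 0.057, *Hnrnpl* 0.0396, *Rbm3* 0.0086, and among the related genes *Rbm20* 0.018 and *Sf1* 0.053. With total count scaling these were *Hnrnph3* 0.023, *Hnrnph1* 0.036, *Hnrnpk* 0.025, *Hnrnpc* 0.037, *Hnrnpul2* 0.00054, *Srsf6* 0.014, *Hnrnpul1* 0.0011, *Hnrnpl* 0.036, *Rbm3* 0.022. With genes at 5 CPM or more these were *Hnrnph3* 0.00043, *Hnrnph1* 0.0097, *Hnrnpc* 0.0058, *Hnrnpl* 0.00805. After thinning these were *Hnrnph3* 0.021, *Hnrnpab* -0.0034, *Hnrnpc* 0.0074, *Srsf7* -0.0302. With the GC trend removed these were *Hnrnph3* 0.031, *Hnrnph1* 0.093, *Hnrnpab* -0.0025, *Srsf1* 0.016, *Hnrnpk* 0.039, *Hnrnpc* 0.047, *Srsf6* 0.023, *Rbm3* 0.054. With limma-voom it was *Hnrnph1* 0.0033. Without saline 36 and ethanol 60 these were *Hnrnph1* 0.058, *Hnrnpc* 0.0400, *Srsf7* -0.023, *Hnrnpul2* 0.00089, *Srsf10* 0.033, *Hnrnpl* 0.0098, *Rbm3* 0.0047. With no low-count filter these were *Hnrnpab* -0.0026, *Srsf7* -0.011. *Srsf7* had -0.0053 with DESeq2 and -0.0051 with RLE size factors. Fits without 1 library gave *Hnrnpa2b1* -0.016 to 0.084, *Hnrnpab* -0.038 to 0.044, *Hnrnpc* -0.0402 to 0.033, *Hnrnpd* -0.026 to 0.055, *Hnrnph1* -0.061 to 0.041, *Hnrnph3* -0.067 to 0.069, *Hnrnpk* -0.055 to 0.0089, *Hnrnpl* -0.022 to 0.019, *Hnrnpr* -0.0049 to 0.073, *Hnrnpul2* -0.079 to 0.019, *Rbm3* -0.076 to 0.067, *Srsf5* -0.057 to 0.15, *Srsf6* -0.069 to 0.045, *Srsf7* -0.095 to 0.098. An unadjusted p under 0.05 was reached by *Cirbp* without ethanol 57, *Hnrnpm* without saline 36 alone and *Hnrnpa1* without ethanol 51, and *Hnrnpll* kept it in every fit but the one with 1 surrogate variable. The cause of these shifts was not tested. No paired analysis was possible because the groups share no replicate number. The ethanol libraries were shallower, and thinning left the same 2 members at an unadjusted p under 0.05.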

Other observations

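The ratio of *Cirbp* to *Rbm3* within a library was 0.487, 0.469, 0.472, 0.482 and 0.475 in ethanol 51, 57, 59, 60 and 62, against 0.420, 0.381, 0.467, 0.459 and 0.416 in saline 32, 34, 36, 38 and 39. It does not depend on library scaling. Every ethanol library lay above every saline library, although the nearest, ethanol 57 and saline 36, almost met. The mean ratio was 0.477 ± 0.0072 in ethanol and 0.429 ± 0.035 in saline (SD, n = 5 each). The log2 difference was 0.16 (two-sided exact permutation p = 0.00794, the smallest that 5 against 5 mice can give). Any ratio that separates the groups gives this p. The difference was noticed after the values were seen, as 1 of 528 ratios between members, of which 13 separated the groups (2.46%). That share was not computed for ratios between other genes. *Cirbp* transcripts hold 53.7% GC and *Rbm3* transcripts 41.5%, and the relative GC slope of the libraries ran with the groups. After removal of each library's GC trend the ratio was 0.46 ± 0.0038 in ethanol and 0.446 ± 0.044 in saline, the groups overlapped, and the log2 difference was 0.05 (exact permutation p = 0.452), a step chosen for this ratio after seeing the data.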
